A study of Mus musculus with 8 samples.

Results

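Mouse esophageal organoids given TGFb1 together with BMP4 were compared with organoids given a TGFb receptor inhibitor. The comparison was defined by the labels and took 4 of the 8 libraries, 2 per group. It covered 16180 of the 52636 genes in the deposited table, namely those at 1 CPM (read counts scaled to a common total per library) or more in at least 2 of the 8 libraries. Organoids are 3-dimensional cultures, here of cells from digested esophagi of wild-type mice, embedded in matrigel, cultured 13 days and fed every 2 days. The control group was given 500 nM A8301, a compound that blocks the kinase of TGFb type I receptors. Treated organoids received TGFb1 at 1 ng/ml and BMP4 at 20 ng/ml, with no inhibitor listed, so the comparison covers both the added ligands and the absent inhibitor. Treatment lasted 72 h in every group and was renewed every 24 h. The other groups of 2 libraries, used for reference, received TGFb1 alone or BMP4 with the inhibitor, at the same doses. Whether replicates are separate animals or cultures is left unstated, as are the age and sex of the mice, so p-values measure the spread between these libraries.

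TGFb and BMP ligands bind paired type I and type II receptor kinases, which phosphorylate SMAD proteins. TGFb acts mainly through SMAD2 and SMAD3 and BMP through SMAD1, SMAD5 and SMAD9, and both sets enter the nucleus with SMAD4. The esophagus of the mouse is lined by a stratified squamous epithelium, in which basal cells divide and suprabasal cells differentiate and form a cornified surface. TGFb is known for arresting the growth of epithelial cells and for inducing matrix genes, and BMP signalling takes part in differentiation of the esophageal epithelium.

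The 250 bases before the start of 5 genes on which the results below turn are shown to place SMAD motifs beside the values, from RefSeq on GRCm38.p6 and read on the gene's strand. They belong to Smad6, a BMP feedback gene (chr9:64022060-64022309, minus strand), Col7a1, a TGFb-induced collagen gene (chr9:108953336-108953585, plus strand), Krt20, a simple-epithelium keratin gene (chr11:99438154-99438403, minus strand), and Lgr6 and C1qtnf3, which were highest with both ligands (chr1:135105277-135105526, minus strand, and chr15:10952082-10952331, plus strand). Capitals mark CAGAC, a SMAD-binding element, and GGCGCC or GGAGCC, GC-rich SMAD elements, on either strand.
Smad6: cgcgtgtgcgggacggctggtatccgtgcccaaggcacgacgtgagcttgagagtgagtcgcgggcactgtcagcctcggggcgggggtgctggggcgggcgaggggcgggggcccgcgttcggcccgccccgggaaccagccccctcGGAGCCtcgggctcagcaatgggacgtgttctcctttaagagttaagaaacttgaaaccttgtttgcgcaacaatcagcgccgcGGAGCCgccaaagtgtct
Col7a1: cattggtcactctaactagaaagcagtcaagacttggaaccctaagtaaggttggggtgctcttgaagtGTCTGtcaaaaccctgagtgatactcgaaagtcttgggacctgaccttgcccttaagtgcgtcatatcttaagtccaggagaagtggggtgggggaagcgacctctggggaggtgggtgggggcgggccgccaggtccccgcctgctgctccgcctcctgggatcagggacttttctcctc
Krt20: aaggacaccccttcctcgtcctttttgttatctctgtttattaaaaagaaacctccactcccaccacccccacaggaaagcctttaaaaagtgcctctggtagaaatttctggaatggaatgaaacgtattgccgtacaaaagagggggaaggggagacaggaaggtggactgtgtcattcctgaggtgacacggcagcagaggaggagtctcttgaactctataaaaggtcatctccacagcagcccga
Lgr6: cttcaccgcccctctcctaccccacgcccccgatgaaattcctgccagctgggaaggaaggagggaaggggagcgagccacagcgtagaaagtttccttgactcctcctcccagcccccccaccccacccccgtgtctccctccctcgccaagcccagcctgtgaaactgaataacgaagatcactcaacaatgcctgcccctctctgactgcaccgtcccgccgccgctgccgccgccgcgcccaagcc
C1qtnf3: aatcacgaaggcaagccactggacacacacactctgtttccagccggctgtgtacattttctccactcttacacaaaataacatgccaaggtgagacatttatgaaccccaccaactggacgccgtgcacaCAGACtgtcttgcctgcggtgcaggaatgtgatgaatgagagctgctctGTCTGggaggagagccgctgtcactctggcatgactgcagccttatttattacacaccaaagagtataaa
The Smad6 window held GGAGCC 2 times, the Col7a1 window CAGAC 1 time and the C1qtnf3 window CAGAC 2 times, while these letters were not in the Krt20 and Lgr6 windows. Of 27025 windows of this length, 42.1% held CAGAC, 9.5% held GGCGCC and 25.7% held GGAGCC. Among genes described below, CAGAC was held by 13 of 19 TGFb response windows (68.4%) and 1 of 11 BMP response windows (9.1%), against 41.1% of the 10945 windows of tested genes. GGCGCC or GGAGCC was held by 11 of 19 (57.9%) and 7 of 11 (63.6%), against 44.5%.

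The deposited values summed to between 20011215 and 20013233 per library, since the authors scaled them, and 23718 to 27476 genes were above 0 in a library. Along the first principal component (68.1% of variance) the 4 libraries with TGFb1 lay apart from the other 4. Markers of the labelled esophageal epithelial cells were abundant in all 4 libraries compared. Krt5 and Krt14, keratins of basal squamous cells, were at 2643 CPM or more in each of them, and Trp63, a regulator of basal cells, was at 296 CPM or more.

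With both ligands, 7449 of 16180 genes (46.0%) passed an adjusted p of 0.05 by limma, of which 4469 were higher (27.6%) and 2980 lower (18.4%). Of these, 2266 were at least 2-fold higher (14%) and 1566 at least 2-fold lower (9.68%) on the log2(CPM + 1) scale, which holds for every fold change below. With median-of-ratios scaling the split was 3447 higher and 3681 lower, and the median log2 fold change of all tested genes moved from 0.13 to 0.01. All 2980 lower calls and 3439 of the 4469 higher calls stayed under that scaling. Leaving out inhibitor replicate 1 or 2 left 4493 or 4579 calls. Libraries of the 2 groups did not overlap for 12381 genes (76.5%). The largest rise was that of Amtn, which encodes amelotin, a secreted protein known from tooth enamel formation (0.25 and 0.10 against 831 and 616 CPM, 9.26 ± 0.92, adjusted p = 0.000634).

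**Figure D1:**
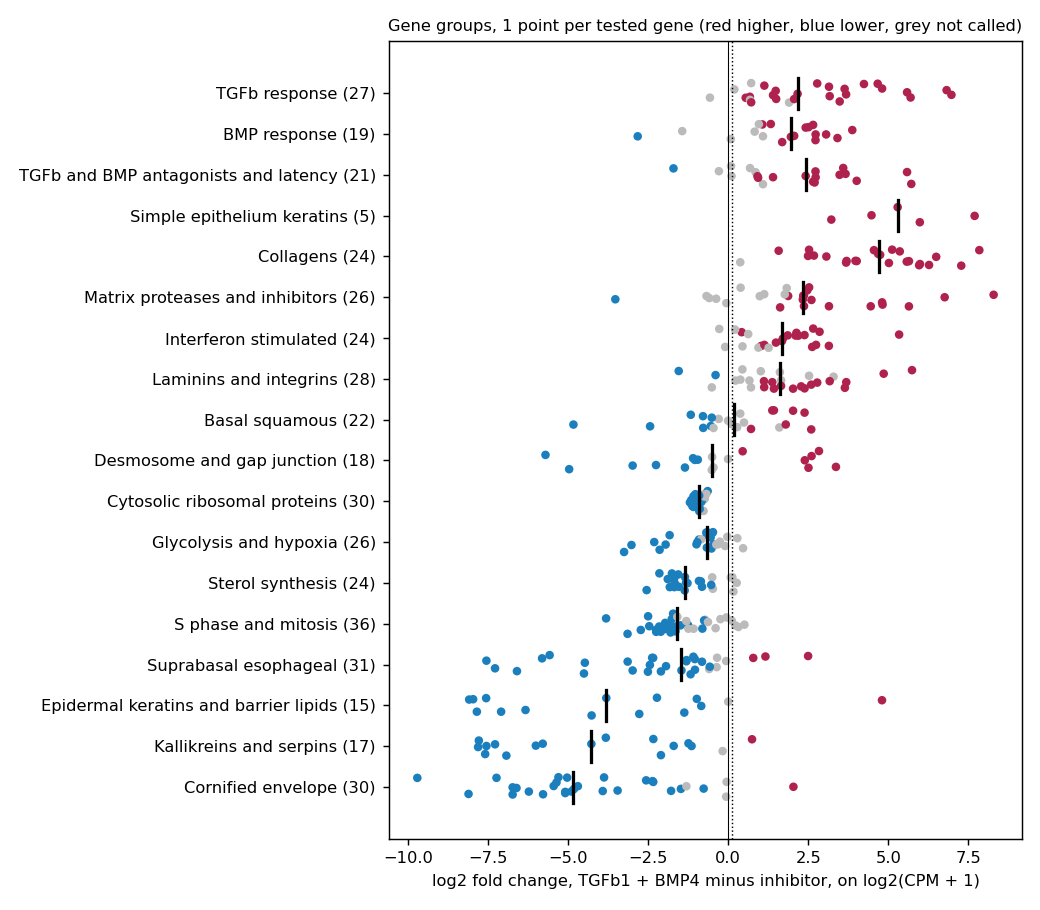
Log2 fold change of each tested gene, TGFb1 + BMP4 minus inhibitor on log2(CPM + 1), in 18 gene groups with the number tested in brackets. Black bars are group medians, from -4.86 for cornified envelope genes to 5.29 for simple-epithelium keratins, and the dotted line is the median of all tested genes, 0.13.

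Known BMP targets rose with both ligands. Among the 19 such genes tested, 13 rose and 1 fell, with a median log2 fold change of 1.96 against 0.13 over all tested genes. Id2, an inhibitor of basic helix-loop-helix factors, was at 9.84 and 7.95 CPM in inhibitor replicates 1 and 2 and at 147 and 140 CPM with TGFb1 + BMP4 (log2 fold change 3.87 ± 0.20 SE, adjusted p = 0.000118). Runx2, a transcription factor of bone, was at 19.3 and 14.7 against 202 and 176 CPM (3.41 ± 0.26, adjusted p = 0.000298). Both genes were apart between the groups in every library, as were 76.5% of all tested genes. Against TGFb1 alone, described below, Id2 did not pass. Smad6, an inhibitory SMAD, was at 3.1 and 3.65 against 27.7 and 25.2 CPM (2.65 ± 0.25, adjusted p = 0.000489). Id3 was at 41.8 and 66.3 against 328 and 284 CPM (2.51 ± 0.33, adjusted p = 0.0017). Atoh8, a basic helix-loop-helix factor, was at 0.15 and 0.45 against 7.75 and 12.2 CPM (3.06 ± 0.25, adjusted p = 0.000376). None of these 3 genes overlapped between the groups, as held for 76.5% of all tested genes, and the rises of Id3 and Smad6 were similar in size. Dlx5, a homeobox gene, was the member that fell, at 9.39 and 17.5 against 1.25 and 0.70 CPM. Id1 was at 88.4 and 85.3 against 213 and 157 CPM (1.07 ± 0.33, adjusted p = 0.0387). Its call was the weakest of the list and was lost in 8 of 14 alternatives, among them each inhibitor, BMP4 + inhibitor or TGFb1 + BMP4 library left out, with adjusted p between 0.00509 and 0.155.

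Known TGFb targets rose as well, 22 of 27 with 0 falling and a median of 2.17. Nuak1, a kinase gene, was at 1.55 and 2.15 against 415 and 302 CPM (6.97 ± 0.25, adjusted p = 5.39e-05). Ctgf, which encodes a secreted matricellular protein, was at 1.15 and 1.25 against 171 and 357 CPM (6.82 ± 0.37, adjusted p = 0.000126). Each was near 1 or 2 CPM in the control libraries and above 100 CPM in both treated ones. Pmepa1, which encodes a feedback inhibitor that binds SMAD2 and SMAD3, was at 11.5 and 9.99 against 638 and 575 CPM (5.69 ± 0.24, adjusted p = 6.43e-05). Ldlrad4, of the same family, was at 1.90 and 1.5 against 47.1 and 52.6 CPM (4.24 ± 0.17, adjusted p = 6.06e-05). Tgfbi, a secreted matrix protein, was at 62.0 and 52.4 against 1475 and 1467 CPM (4.67 ± 0.21, adjusted p = 7.25e-05). The treated libraries lay close together for these 3 genes. Cdkn2b, a CDK inhibitor gene through which TGFb holds cells in G1, was at 10.5 and 11.6 against 171 and 129 CPM. Skil, a SMAD corepressor gene, rose by 2.17 ± 0.13 (adjusted p = 0.000145).

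**Figure D2:**
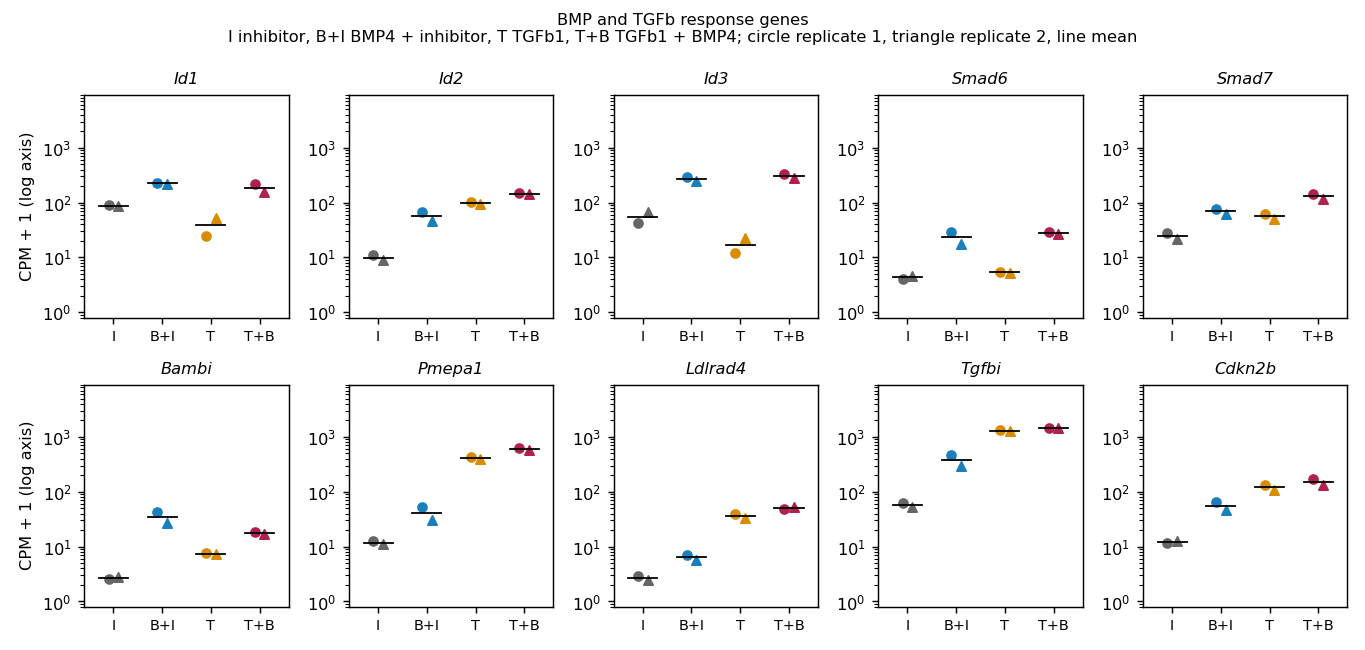
CPM + 1 on a log axis in each of the 8 libraries for 10 BMP and TGFb response genes, with a circle for replicate 1, a triangle for replicate 2 and a line for the mean of each group. Id2, Id3 and Smad6 were above 25 CPM in both TGFb1 + BMP4 libraries, and Tgfbi was at 1475 and 1467 CPM there against 62.0 and 52.4 CPM with the inhibitor.

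More genes of the pathways' own ligands, receptors and antagonists rose than fell, where 27.6% of all tested genes rose and 18.4% fell. Of 16 tested ligand genes 7 rose and 2 fell (43.75% and 12.5%), and 7 were not called. Tgfb3 was at 0.45 and 1.40 against 156 and 106 CPM (6.12 ± 0.36, adjusted p = 0.000151), and Tgfb2 at 11.2 and 10.5 against 379 and 295 CPM (4.82 ± 0.36, adjusted p = 0.000274). Both encode TGFb ligands and neither overlapped between the groups, as held for 76.5% of all tested genes. Bmp3 and Bmp7 were the ligand genes that fell (log2 fold changes -1.42 and -2.92, adjusted p = 0.0339 and 0.00382). Of these calls 1 was lost with no filter and without inhibitor replicate 2, TGFb1 + BMP4 replicate 1 or TGFb1 + BMP4 replicate 2. Of 12 receptor genes 5 rose and 1 fell (41.7% and 8.33%), and 6 were not called. Acvr1, a BMP type I receptor gene (35.8 and 40.7 against 103 and 113 CPM), and Tgfbr1 (20.5 and 26.3 against 80.7 and 112 CPM) led in significance. Without inhibitor replicate 2 or TGFb1 + BMP4 replicate 2, 3 receptor genes rose. Of 21 antagonist and latency genes, which encode proteins that trap ligands or hold them inactive, 14 rose and 1 fell, with a median of 2.42. Nog, which encodes the BMP antagonist noggin, was at 0.70 and 0.80 against 12.2 and 9.19 CPM, and Bambi, a pseudoreceptor gene, at 1.60 and 1.8 against 17.3 and 16.3 CPM. Sostdc1, a BMP and Wnt antagonist gene, was the one that fell (-1.71, adjusted p = 0.031). That call was lost with no filter, with a pseudocount of 0.1 and without either inhibitor or either TGFb1 + BMP4 library.

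Keratins of the squamous layers moved apart from each other. Krt4, the keratin of suprabasal esophageal cells (ENSMUSG00000059668, chromosome 15, 101918535 to 101924735, GRCm38), was at 4097 and 2824 CPM with the inhibitor and at 323 and 459 CPM with both ligands (-3.14 ± 0.31, adjusted p = 0.00058). Its partner Krt13 was at 5853 and 4974 against 2336 and 2047 CPM (-1.30 ± 0.19, adjusted p = 0.00231). Krt15, a keratin of basal cells, was at 389 and 355 against 70.9 and 64.7 CPM (-2.44 ± 0.16, adjusted p = 0.000198). All 3 fell, and their libraries did not overlap, which was so for 76.5% of all tested genes. In bulk RNA fewer cells of a type and less RNA per cell cannot be told apart. Krt5 was at 3642 and 3399 against 4844 and 3765 CPM and did not pass (adjusted p = 0.249). Krt14 was at 2643 and 2856 against 5162 and 3923 CPM (0.71 ± 0.20, adjusted p = 0.0253). That call was lost in 7 alternatives, among them each inhibitor library, TGFb1 replicate 1 or TGFb1 + BMP4 replicate 1 left out (adjusted p 0.00736 to 0.112 over all alternatives). Trp63 fell (log2 fold change -0.54, adjusted p = 0.00924), a call lost when leaving out inhibitor replicate 2 or TGFb1 + BMP4 replicate 2 (adjusted p up to 0.0541), and Sox2 did not pass (adjusted p = 0.21). Of 22 basal squamous genes 7 rose and 7 fell (31.8% each, against 27.6% and 18.4% over all tested genes), with a median of 0.19. Lama3, which encodes a chain of the laminin that anchors basal cells, rose from 219 and 222 to 1228 and 1086 CPM. Dlk2, a Notch-ligand-like gene, fell from 38.6 and 54.9 to 0.30 and 1.1 CPM.

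**Figure D3:**
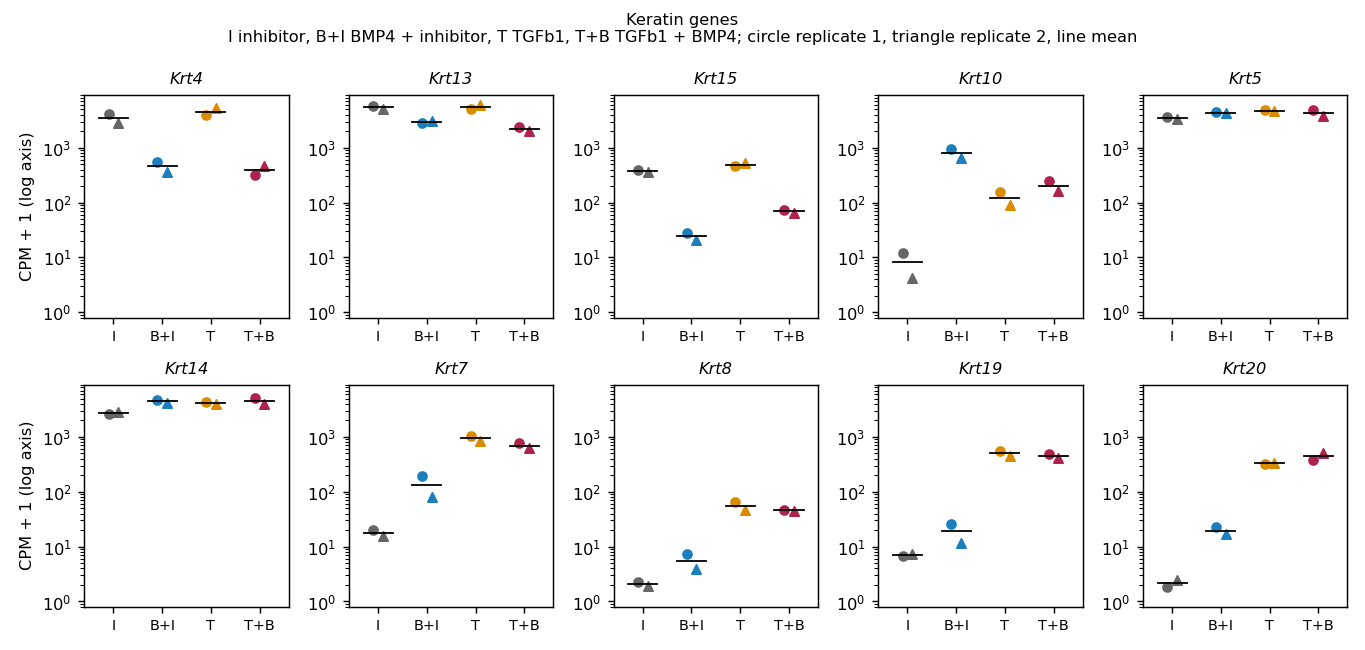
CPM + 1 on a log axis in each library for 10 keratin genes, with a circle for replicate 1, a triangle for replicate 2 and a line for the group mean. With TGFb1 + BMP4, Krt4 was at 323 and 459 CPM and Krt7 at 769 and 621 CPM, against 4097 and 2824 CPM and 19.1 and 14.5 CPM with the inhibitor.

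Differentiation genes above the basal layer fell in most cases. Of 31 suprabasal esophageal genes 24 fell and 3 rose (median -1.46), and of 30 cornified envelope genes 26 fell and 1 rose (median -4.86). Rptn, which encodes the envelope protein repetin, was at 3656 and 2822 CPM with the inhibitor and at 0.899 and 6.80 CPM with both ligands, the largest fall by log2 fold change (-9.71 ± 1.76, adjusted p = 0.00563). Krtdap, a keratinocyte differentiation gene, was at 554 and 466 against 0.10 and 2.1 CPM (-8.11 ± 1.20, adjusted p = 0.00265). Hrnr, which encodes hornerin, was at 79.6 and 46.3 against 0.05 and 0.20 CPM. Rptn and Krtdap were higher in replicate 2 than in replicate 1 of the treated libraries, and all 3 genes were far below both control libraries. Ivl, which encodes the envelope precursor involucrin, was the member that rose (2.04, adjusted p = 0.0201), a call lost without inhibitor replicate 1 or 2 or TGFb1 + BMP4 replicate 1. The Lce and Sprr2 families hold near-identical copies, among which reads may be split with uncertainty. Klf4, a transcription factor of differentiating squamous cells, was at 698 and 668 against 130 and 120 CPM (-2.45 ± 0.20, adjusted p = 0.000372). Mal, which encodes a membrane protein of apical transport, rose among the suprabasal genes, from 164 and 127 to 908 and 738 CPM.

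Genes of the lipid barrier and of surface proteolysis fell with them. Of 15 epidermal keratin and barrier lipid genes 13 fell and 1 rose (median -3.81). Alox12b, a lipoxygenase gene, was at 1166 and 863 against 3.20 and 2.25 CPM (-8.09 ± 0.60, adjusted p = 0.000274), and Abca12, which encodes the lipid transporter of lamellar granules, at 1192 and 882 against 2.60 and 3.70 CPM (-7.96 ± 0.62, adjusted p = 0.000309). The riser was Krt10, which encodes an epidermal keratin, at 11.2 and 3.15 against 241 and 162 CPM (4.80 ± 0.53, adjusted p = 0.000941). Krt10 and the lipid genes thus went in opposite directions within one list. Of 17 kallikrein and serpin genes, which encode the proteases that shed surface cells and their inhibitors, 15 fell and 1 rose (median -4.27). Klk14 was at 1890 and 1688 against 5.30 and 9.09 CPM (-7.81 ± 0.64, adjusted p = 0.00037), and Klk12 at 332 and 321 against 1.55 and 1.85 CPM (-6.93 ± 0.37, adjusted p = 0.000126).

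Keratins of simple epithelium rose, 5 of 5, with a median of 5.29. Krt20 (ENSMUSG00000035775, chromosome 11, 99428403 to 99438150), a keratin of intestinal and urothelial surface cells, was at 0.85 and 1.5 against 384 and 513 CPM (7.69 ± 0.22, adjusted p = 5.39e-05). Krt19 was at 5.85 and 6.40 against 495 and 407 CPM, and Krt7 at 19.1 and 14.5 against 769 and 621 CPM. Krt8 and Krt18, the partner keratins of simple epithelia, were lower throughout, at 46.0 and 43.8 and at 56.6 and 49.8 CPM in the treated libraries. Of 36 columnar genes 15 could be tested, and 10 rose and 1 fell (median 2.36), a count that includes these 5 keratins. Outside the keratins, Sox9, which encodes a factor found in columnar and progenitor cells, was at 29.8 and 25.6 against 191 and 153 CPM (2.59 ± 0.24, adjusted p = 0.000466), and the mucin gene Muc4 at 12.5 and 8.70 against 134 and 139 CPM. The other 21 genes of the list were below the filter, with the intestinal or gastric markers Cdx1, Cdx2, Tff2, Tff3 and Cldn18 listed at 0 in all 4 libraries. Spdef, a factor of goblet cells, was the member that fell (-3.73).

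Cell junction genes divided between types. Of 16 tight junction genes 8 rose and 4 fell, and of 18 desmosome and gap junction genes 6 rose and 8 fell (medians 0.99 and -0.51). Cldn3 and Cldn7, claudin genes of simple epithelia, were at 0.05 and 0.40 against 21.8 and 21.6 CPM and at 7.50 and 7.60 against 94.0 and 69.2 CPM. Cldn8, another claudin gene, was at 201 and 179 against 2.1 and 2.75 CPM (-5.81 ± 0.57, adjusted p = 0.000589). Desmosome genes likewise parted by member. Dsg2 and Pkp2, which encode desmosome proteins found in simple epithelia, rose by 2.83 ± 0.25 and 3.36 ± 0.24 (adjusted p = 0.000434 and 0.000236). Dsg1b and Dsc1, desmosome genes of differentiated squamous cells, were at 623 and 494 against 17.6 and 16.0 CPM and at 118 and 66.5 against 0.55 and 0.899 CPM.

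Matrix genes rose broadly. Of 24 tested collagen genes 23 rose and 0 fell (median 4.71), of 33 elastic fibre and matricellular genes 22 rose and 1 fell (median 3.28), and of 28 laminin and integrin genes 15 rose and 2 fell (median 1.63). Col5a3 (ENSMUSG00000004098, chromosome 9, 20770050 to 20815067), a minor fibrillar collagen gene, was at 0.35 and 1.1 against 422 and 350 CPM (7.84 ± 0.37, adjusted p = 8.79e-05). Col4a4, which encodes a chain of specialised basement membranes, was at 0.35 and 0.40 against 62.4 and 73.4 CPM (5.64 ± 0.18, adjusted p = 5.39e-05). Col7a1, the anchoring fibril collagen gene, was at 69.6 and 53.1 against 713 and 879 CPM (3.68 ± 0.24, adjusted p = 0.00021). The treated libraries were close together for these 3 genes. Col1a1, the main fibrillar collagen gene, was instead at 3.75 and 13.1 against 615 and 2603 CPM (7.28 ± 0.97, adjusted p = 0.00177), and Eln, the elastin gene, at 0.20 and 0.10 against 138 and 584 CPM (7.96 ± 0.85, adjusted p = 0.000825). Replicate 2 exceeded replicate 1 by at least 2-fold in 14 of the 24 collagen genes with TGFb1 + BMP4, with ratios from 0.829 for Col5a3 to 7.98 for Col3a1. Of the other 10 genes, 9 rose. For elastic fibre and matricellular genes the median log2 excess of replicate 2 was 0.78 with the inhibitor and 1.81 with both ligands. Over all tested genes this excess was 0.06 and 0.05. Without inhibitor replicate 1, 15 collagen and 11 elastic fibre and matricellular genes rose.

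**Figure D4:**
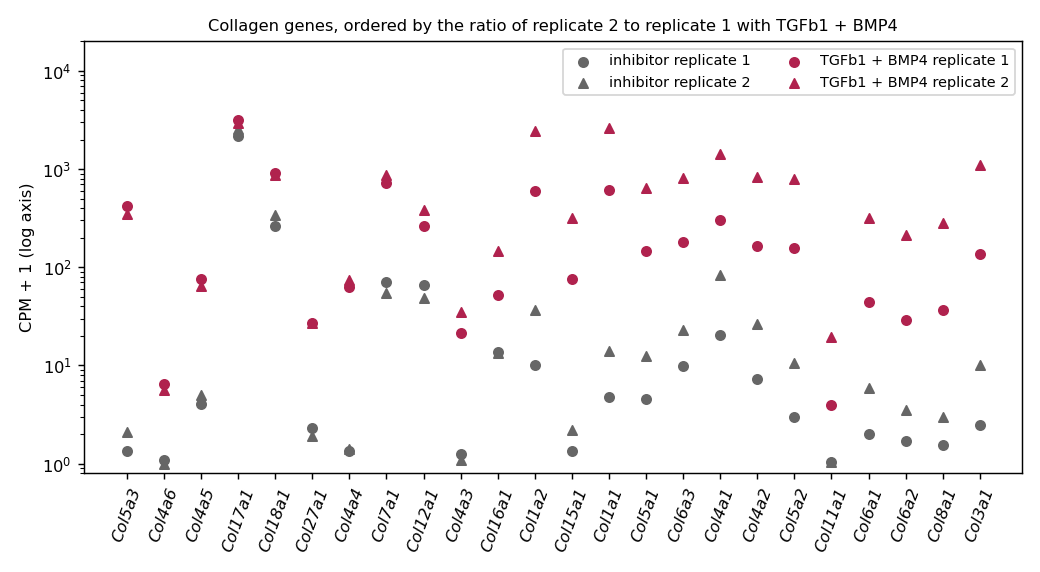
CPM + 1 on a log axis of 24 collagen genes in the 2 inhibitor and the 2 TGFb1 + BMP4 libraries, ordered by the ratio of replicate 2 to replicate 1 with TGFb1 + BMP4. At the left, as for Col5a3 at 422 and 350 CPM, the treated replicates lie together, and at the right, as for Col3a1 at 137 and 1090 CPM, replicate 2 lies above replicate 1.

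Among markers of other cell types, those of fibroblasts were higher in sum along with these matrix genes. The other types had few calls or calls in both directions. Over all tested genes 27.6% rose and 18.4% fell. Summed over 17 fibroblast markers, which include 4 collagen genes, levels were 508 and 744 CPM with the inhibitor and 2044 and 8131 CPM with both ligands, and 8 of 16 tested members rose (14 with the replicate block, 3 without inhibitor replicate 1). Pdgfra, a marker of fibroblasts that is no matrix gene, was at 2.35 and 7.20 against 10.2 and 69.1 CPM. Summed over 12 skeletal muscle markers, levels were 22.4 and 80.7 against 113 and 588 CPM, and 0 of 10 tested members passed (3 at an unadjusted p under 0.05, and 8 rose with the block). Smooth muscle markers summed to 82.2 and 93.4 against 124 and 317 CPM, with the defining gene Myh11 at most at 0.35 CPM, and 2 of 5 tested members rose (none without inhibitor replicate 1 or 2, and 1 without TGFb1 + BMP4 replicate 2). In both groups fibroblast and skeletal muscle markers were higher in replicate 2. The median log2 excess of replicate 2 was 0.94 and 2.28 for fibroblast markers and 1.34 and 2.26 for skeletal muscle markers, with the inhibitor and with both ligands, against 0.06 and 0.05 over all tested genes. The part of these cells in the matrix result was not tested. Immune markers summed to 156 and 134 against 180 and 226 CPM, with Ptprc and Cd3e at 0.30 CPM or less, and 2 of 6 tested members rose and 1 fell (4 and 1 with the block). Those that rose were Cd14 and Itgam (adjusted p = 0.000479 and 0.00129 by limma), and Cd68 fell (adjusted p = 0.000167). Endothelial markers summed to 14.3 and 18.2 against 9.20 and 34.3 CPM, with the defining gene Pecam1 at 1.30 CPM or less and 0 of 2 tested members passing (0 at an unadjusted p under 0.05). Neural and glial markers summed to 29.0 and 22.3 against 45.9 and 71.7 CPM, with Sox10 at 0.20 CPM or less, and 3 of 5 tested members rose and 1 fell. Mitf, Ret and Pmel rose, and Tubb3 fell.

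Mesenchymal genes, proteases and the cytoskeleton followed in part, where 27.6% of all tested genes rose and 18.4% fell. Of 21 genes of mesenchymal state and epithelial-mesenchymal transition (EMT) 10 rose and 3 fell (median 1.67), or 16 and 3 with the replicate block. Vim, the mesenchymal filament gene, was at 0.999 and 4.10 against 25.5 and 128 CPM, again highest in replicate 2 (4.20 ± 0.95, adjusted p = 0.0128). Its call was lost without inhibitor replicate 1 or TGFb1 + BMP4 replicate 2 (adjusted p up to 0.0786). Cdh1, the epithelial cadherin gene, was at 992 and 872 against 1232 and 1045 CPM and passed with the replicate block only (adjusted p = 0.0457, against 0.144). Ovol1 and Esrp1, which encode regulators of epithelial state, fell (log2 fold changes -3.21 and -1.07, adjusted p = 0.000595 and 0.00169). Of 26 matrix protease and inhibitor genes 16 rose and 1 fell (median 2.34). Their median log2 excess of replicate 2 was 0.39 with the inhibitor and 1.52 with both ligands. Over all tested genes this excess was 0.06 and 0.05. Adam12, a metalloprotease gene (ENSMUSG00000054555, chromosome 7, 133883199 to 134232146), was at 0.85 and 0.949 against 605 and 578 CPM (8.29 ± 0.14, adjusted p = 4.36e-06), with treated replicates close together. Of 20 actin cytoskeleton genes 11 rose and 1 fell (median 0.69), and of 16 YAP target genes 10 rose and 0 fell (median 1.16). Without inhibitor replicate 1 the rising genes numbered 4 for EMT, 9 for proteases and 7 for actin, and without inhibitor replicate 2 they numbered 6 for EMT and 7 for actin, while 5 EMT genes rose without TGFb1 + BMP4 replicate 2.

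Other signalling pathways changed by member, where 27.6% of all tested genes rose and 18.4% fell. Of 25 Wnt genes 11 rose and 4 fell (median 0.87). Lgr6, a receptor for R-spondins, was at 0.05 and 0.10 against 717 and 501 CPM (9.13 ± 0.74, adjusted p = 0.000353), and Wnt5a, a ligand of the pathway's noncanonical branch, at 62.5 and 66.5 against 316 and 311 CPM (2.26 ± 0.09, adjusted p = 6.06e-05). Without inhibitor replicate 2 or TGFb1 + BMP4 replicate 1, 2 Wnt genes fell, and with the block 6 Notch genes fell. Of 12 Notch genes 4 rose and 4 fell (33.3% each). The ligand gene Jag1 was at 155 and 168 against 760 and 735 CPM and Dll1 at 35.8 and 33.7 against 5.05 and 5.75 CPM. Of 17 EGF family genes 1 rose and 7 fell, with Nrg1, a ligand gene, at 81.0 and 98.8 against 7.50 and 7.00 CPM. Without inhibitor replicate 1, inhibitor replicate 2 or either TGFb1 + BMP4 library, 4 EGF family genes fell, and without inhibitor replicate 1 or 2 the Notch genes that rose numbered 2 or 1. Of 12 IGF axis genes 2 rose and 2 fell (16.7% each, below the shares over all tested genes). These counts were 5 and 3 without TGFb1 + BMP4 replicate 1 and 6 and 3 with the block. Igfbp3 and Igfbp2, which encode IGF-binding proteins, went opposite ways, at 32.6 and 19.2 against 719 and 550 CPM and at 74.5 and 66.3 against 0.05 and 0.25 CPM. None of the 7 tested Hedgehog genes passed by limma (2 at an unadjusted p under 0.05, and 1 fell with the block).

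Immune and defence genes changed in both directions, where 27.6% of all tested genes rose and 18.4% fell. Of 29 chemokine and cytokine genes 11 rose and 8 fell. Ppbp, a neutrophil-attracting chemokine gene, was at 5.80 and 5.10 against 1223 and 935 CPM (7.38 ± 0.25, adjusted p = 5.39e-05), and Ccl20, which attracts lymphocytes, at 33.0 and 29.0 against 0.15 and 0.15 CPM (-4.80 ± 0.29, adjusted p = 0.000151). Of 24 interferon-stimulated genes 17 rose and 0 fell (median 1.69), with Ifi44 at 0.15 and 0.05 against 44.2 and 42.6 CPM and Ddx58, an RNA sensor gene, at 5.15 and 4.25 against 36.2 and 37.8 CPM. Both treated libraries were above both control libraries for these genes, while 76.5% of all tested genes did not overlap in 1 direction or the other. Of 15 MHC class I and antigen presentation genes 4 rose and 2 fell (26.7% and 13.3%), shares no higher than over all tested genes. Without inhibitor replicate 1 or TGFb1 + BMP4 replicate 1, 2 rose. Of 10 eicosanoid enzyme genes 3 rose and 3 fell (30.0% each). Alox15, a lipoxygenase gene, was at 2.55 and 1.40 against 505 and 496 CPM (7.43 ± 0.27, adjusted p = 5.39e-05). Of 15 secreted defence genes 3 rose and 7 fell. Ltf, which encodes lactoferrin, was at 77.9 and 62.9 against 3345 and 3363 CPM (5.56 ± 0.38, adjusted p = 0.000221). Slpi, a protease inhibitor gene, was at 1707 and 1601 against 83.1 and 66.1 CPM (-4.46 ± 0.20, adjusted p = 7.25e-05), and the calprotectin gene S100a9 at 374 and 546 against 13.8 and 16.5 CPM.

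Most genes of sterol synthesis and glycolysis fell. Of 24 sterol synthesis genes 18 fell and 0 rose (median -1.33). Lss, which encodes lanosterol synthase, was at 294 and 273 against 80.4 and 71.7 CPM (-1.89 ± 0.11, adjusted p = 0.000139), and Dhcr7, an enzyme gene of the last steps, at 98.6 and 111 against 32.0 and 31.6 CPM (-1.68 ± 0.12, adjusted p = 0.000257). Of 26 glycolysis and hypoxia genes 18 fell and 0 rose (median -0.65), with Egln3, an oxygen-sensing hydroxylase gene, at 327 and 325 against 72.2 and 58.4 CPM. Without inhibitor replicate 2 or TGFb1 + BMP4 replicate 2, 10 or 11 of them fell. Of 21 glutathione and NRF2 genes 6 rose and 7 fell (28.6% and 33.3%, against 27.6% and 18.4% over all tested genes). Their median was 0.11, or -0.03 with median-of-ratios scaling. Gclc, a glutathione synthesis gene, rose from 97.3 and 87.4 to 334 and 397 CPM.

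Of 36 S phase and mitosis genes 23 fell and 0 rose (median -1.61). Cdc20, which activates the anaphase-promoting complex, was at 49.6 and 41.1 against 1.35 and 3.6 CPM (-3.81 ± 0.49, adjusted p = 0.00158). Mcm3, a replicative helicase gene, was at 36.6 and 38.7 against 5.50 and 9.19 CPM (-2.25 ± 0.38, adjusted p = 0.00448). Mki67, a marker of cycling cells, was at 76.4 and 44.4 against 1.90 and 14.5 CPM (adjusted p = 0.0315), a call lost with no filter and without inhibitor replicate 1 or 2 or TGFb1 + BMP4 replicate 1 (adjusted p up to 0.143). Leaving out any of those 3 libraries left 5 falling genes in the list, and 8 fell with no filter. Of 12 CDK inhibitor and G1 cyclin genes 5 rose and 3 fell. Cdkn1a, a CDK inhibitor gene, was at 642 and 578 against 639 and 478 CPM and did not pass (adjusted p = 0.489). Of 30 cytosolic ribosomal protein genes 24 fell and 0 rose (median -0.92), with Rpl4 at 1265 and 1483 against 622 and 669 CPM. Without inhibitor replicate 2 the falling ribosomal genes numbered 0, and they numbered 11 without inhibitor replicate 1 and 4 without either TGFb1 + BMP4 library and 7 with no filter. Mitochondrial transcripts held 0.628% and 0.658% of the inhibitor libraries and 0.341% and 0.574% of the TGFb1 + BMP4 libraries, and 0 of 8 tested transcripts passed by limma (1 at an unadjusted p under 0.05, and 2 fell with the block). Of 18 AP-1 and immediate early genes 2 rose and 4 fell (11.1% and 22.2%, against 27.6% and 18.4% over all tested genes). These counts were 4 and 8 with the block and 1 and 8 without either BMP4 + inhibitor library.

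The group with both ligands was next set against TGFb1 alone, a comparison that adds BMP4 with no inhibitor on either side. Here 326 genes (2.01%) passed, 149 higher (0.921%) and 177 lower (1.09%), or 94 and 223 with median-of-ratios scaling. BMP targets were higher, 8 of 19 with 0 lower, and Id2 was not among those that passed. Id3 was at 10.9 and 21.2 CPM with TGFb1 alone, below the 41.8 and 66.3 CPM of the inhibitor libraries, and at 328 and 284 CPM with both ligands (4.23 higher on the log2 scale, adjusted p = 0.0108). Id1 showed the same order, at 23.8 and 51.7 CPM with TGFb1 alone. Krt4 was at 3870 and 5200 CPM with TGFb1 alone against 323 and 459 CPM with both (-3.54, adjusted p = 0.0116), and Krt15 at 454 and 520 against 70.9 and 64.7 CPM (-2.83, adjusted p = 0.00617). With BMP4 and inhibitor these keratins were at 545 and 361 and at 27.0 and 20.0 CPM, so that they were low in the 4 libraries with BMP4. Of 31 suprabasal genes 10 were lower than with TGFb1 alone and 0 higher, of 17 kallikrein and serpin genes 8 and 0, and of 24 sterol synthesis genes 9 and 0. Of the 24 collagen genes and the 5 simple-epithelium keratins, none passed by limma in either direction (4 and 0 at an unadjusted p under 0.05). Only 5 of 41 named calls against TGFb1 alone, those of Atoh8, C1qtnf3, Fgf1, Krt15 and Wfdc18, stayed with each of the 8 libraries left out. The calls of Id3 and Krt4 were lost without TGFb1 + BMP4 replicate 1 (adjusted p up to 0.0545 and 0.064), and 0 genes passed when these 2 groups were fitted alone (3088 at an unadjusted p under 0.05), against 1121 with the replicate block. The count was 73 without inhibitor replicate 1 or 2, 158 and 62 without TGFb1 replicate 1 and 2, and 19 and 26 without TGFb1 + BMP4 replicate 1 and 2.

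Against BMP4 with inhibitor, a comparison that adds TGFb1 and removes the inhibitor, 4556 genes (28.2%) passed, 2797 higher (17.3%) and 1759 lower (10.9%), or 1924 and 2070 with median-of-ratios scaling. TGFb targets were higher, 21 of 27 with 0 lower, as were 15 of 24 collagen genes and 5 of 5 simple-epithelium keratins. Of 30 cornified envelope genes 25 were lower and 2 higher. BMP targets were mixed, with 3 higher and 4 lower of 19, and Id2 passed by limma here (adjusted p = 0.0041). Bambi was at 41.1 and 25.6 CPM with BMP4 and inhibitor and at 17.3 and 16.3 CPM with both ligands (-0.91, adjusted p = 0.0293). Its call was lost in 8 alternatives, among them either inhibitor, either TGFb1 + BMP4, BMP4 + inhibitor replicate 1 or TGFb1 replicate 1 left out (adjusted p up to 0.114). Tgm7, a transglutaminase gene, was at 1.25 and 0.45 CPM with the inhibitor, 0.75 and 0.40 CPM with TGFb1, 810 and 573 CPM with BMP4 and inhibitor, and 18.1 and 10.1 CPM with both ligands (-5.55 against BMP4 with inhibitor, adjusted p = 0.000352). Krt10 had a similar order at its high end, at 957 and 649 CPM with BMP4 and inhibitor and 153 and 89.3 CPM with TGFb1 alone, against 241 and 162 CPM with both (-1.99 against BMP4 with inhibitor, adjusted p = 0.0346). The call of Krt10 was lost with no filter and without either BMP4 + inhibitor or either TGFb1 + BMP4 library (adjusted p up to 0.143). Of 150 named calls in this comparison, 28 were lost with at least 1 library left out. The count of calls fell to 2674 without BMP4 + inhibitor replicate 2, to 2424 without TGFb1 + BMP4 replicate 2 and to 2378 with these 2 groups fitted alone.

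Some genes lay apart from all 3 other groups when both ligands were present. By the largest of the 3 adjusted p-values, 70 genes were higher (0.433%) and 113 lower (0.698%) than each of the other groups, or 42 and 138 genes with median-of-ratios scaling. Lgr6 (ENSMUSG00000042793, chromosome 1, 134983301 to 135105276) was at 38 and 21.5 CPM with TGFb1 alone and at 159 and 27.1 CPM with BMP4 and inhibitor, against 717 and 501 CPM with both (largest adjusted p = 0.0446). C1qtnf3, which encodes a secreted protein of the C1q and TNF-related family, was at 0 and 0.20 CPM with the inhibitor, 16.9 and 12.2 with TGFb1, 0.30 and 0.25 with BMP4 and inhibitor, and 208 and 115 CPM with both (largest adjusted p = 0.0116). Wfdc18, a gene of a whey acidic protein domain, was listed at 0 in both inhibitor libraries, at 10.1 and 8.39 CPM with TGFb1, and at 110 and 71.7 CPM with both (largest adjusted p = 0.0108). Fgf1, a fibroblast growth factor gene, was at 30.9 and 31.2 CPM with both ligands and at 3.1 CPM or less in every other library (largest adjusted p = 0.00617). In all 4 genes the lowest library with both ligands was above every other library of the series, which the rule that took them favours.

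On the lower side, Lypd5, a gene of the Ly6 and PLAUR domain family, was at 971 and 807 CPM with the inhibitor, 458 and 525 with BMP4 and inhibitor, 35.0 and 127 with TGFb1, and 1.8 and 4.35 CPM with both (largest adjusted p = 0.0258). Klk8 was at 403 and 382, 281 and 283, 64.4 and 189, and 5.20 and 7.14 CPM in the same order (largest adjusted p = 0.0162). Tgm3, a transglutaminase gene of the cornified envelope, was at 232 and 126, 209 and 214, 57.6 and 195, and 5.75 and 7.84 CPM (largest adjusted p = 0.029). All 3 genes were lowest in the 2 libraries with both ligands, as the rule favours. Klk14, Alox12b and Sprr2i, named among the falling genes or by the same rule, were also in this set. Of the 12 genes that the rule took, C1qtnf3, Fgf1 and Wfdc18 stayed in the set with each library left out. The set fell from 183 genes to 16 and 14 without TGFb1 + BMP4 replicate 1 and 2, to 40 and 41 without inhibitor replicate 1 and 2 and to 39 without TGFb1 replicate 2, and rose to 566 with the replicate block.

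**Figure D5:**
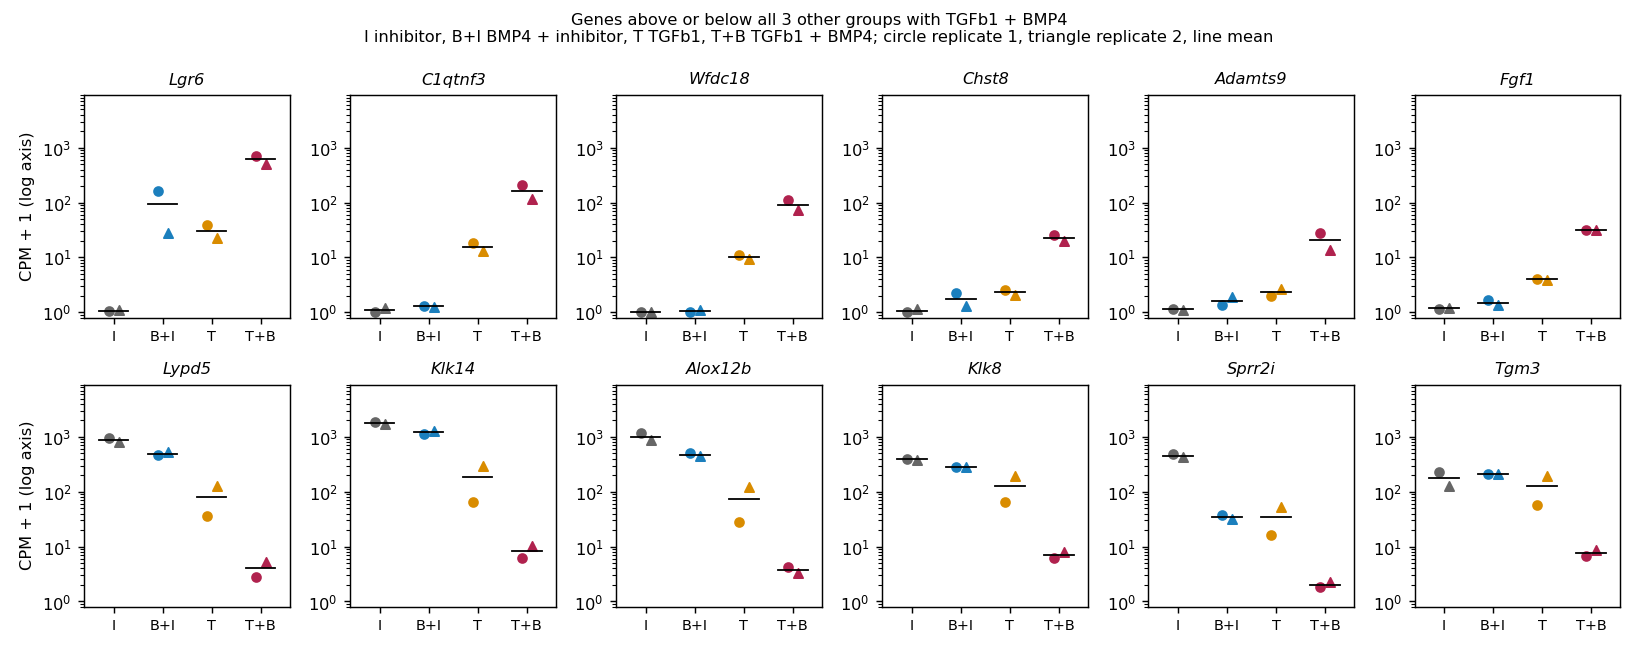
CPM + 1 on a log axis in each library for the 6 genes most above (upper row) and the 6 most below (lower row) all 3 other groups with TGFb1 + BMP4, with a circle for replicate 1, a triangle for replicate 2 and a line for the group mean. Fgf1 was at 30.9 and 31.2 CPM with both ligands, and Klk8 at 5.20 and 7.14 CPM.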

How the data were processed

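RNA from 8 organoid libraries was made into libraries with an Ovation SoLo kit for NovaSeq sequencing, per the labels' protocols. The submitters' processing notes name STAR 2.5.3a, HTSeq and edgeR, with GRCm38 and mm10 as builds. Annotation, strand setting and order of steps: not given in the sources used here. CPM values per gene were used as deposited. The deposited whole-number columns, treated as a score, had been scaled by the authors to a common total and rounded up, so no count test was run and true depth is unknown. Log2 fold changes, p-values and FDR deposited by the authors were not used for calls, and their log2 values correlated at 0.946 across genes with those computed here. Gene positions came from GENCODE M21, which held 52489 of the gene IDs (99.72%).

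All 8 libraries were fitted together in limma 3.58.1 (R 4.3.3, trended variance, group as the only factor, 4 residual degrees of freedom) on log2(CPM + 1), for genes reaching 1 CPM in 2 or more libraries, with Benjamini-Hochberg adjustment over the 16180 genes and a two-sided threshold of 0.05. A log2(CPM + 1) fold change understates changes of low genes. Errors are standard errors of the fit with n = 2 libraries per group. A run of the test on simulated data used independent libraries with no replicate effect and few changed genes. These data differ on both points, so that run does not check the calls made here. The compared groups share replicate numbers. Across genes, deviations from the group means of same-numbered libraries correlated at 0.324 to 0.738 in the 6 pairs of groups. The labels do not say what the numbers share. The main fit left this pairing out, so its p-values and the genes given as not passing do not take it into account. The replicate block, an alternative, added the replicate number as a factor. With the block 9523 genes passed against inhibitor, where the main fit gave 7449. Alternatives were median-of-ratios scaling, no filter, a filter on 4 libraries, a pseudocount of 0.1, the compared groups alone, the replicate block and each library left out.

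The gene groups, 45 lists of 871 genes with 760 tested, and the compared groups were chosen with earlier results of these data known, and lists share members. Named genes were the 10 largest rises and falls reaching 5 CPM in their higher group with no overlap between the groups, up to 4 called members per list by adjusted p, the 6 genes most above and most below all other groups, and a list of signalling, keratin and marker genes. Bmp3, Bmp7, Col3a1, Dlx5, Ivl, Pdgfra, Sostdc1 and Spdef, and genes given as absent cell type markers, were named after their values were seen. Some genes that the rule takes are not reported here. Motifs were searched as exact matches on both strands.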

Additional observations from a re-analysis of the deposited data

How the results depend on the processing

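With each library left out in turn, genes changed between TGFb1 + BMP4 and inhibitor numbered 4493 to 7522. For TGFb1 + BMP4 against TGFb1 alone the count was 80 with no filter, 1121 with the replicate block, 0 with the compared groups alone and 19 to 315 with a library left out. Against BMP4 with inhibitor it was 2378 with the compared groups alone and 2424 to 3839 with a library left out. Genes apart from all 3 other groups numbered 44 with no filter, 566 with the block and 14 to 169 with a library left out. The causes were not tested, though leaving out a library or fitting groups alone leaves fewer libraries. Of 182 called named genes 165 kept their call in every alternative and 17 lost it in at least 1, of which 0 with the block, which turned Cdh1 alone of the named genes into a call. Many of these genes were taken for a small adjusted p or a large change in the same fit. Their share kept therefore does not describe the other calls. Cdkn1a, which did not pass, had log2 fold changes from -0.35 to 0.069 with a library left out. With 2 libraries per group and depth unknown, low values are imprecise.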

Other observations

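Neighbours of Amtn were examined because it had the largest rise, so these genes were chosen after values were seen. On chromosome 5, 7 of 11 tested genes around the casein cluster rose and 1 fell, against 27.6% and 18.4% over all tested genes. The count of rising genes includes Amtn itself. It also includes BC037156 and 1700066N21Rik, which overlap in position. Odam, which encodes an enamel-associated secreted protein, was at 0.10 and 0.10 CPM with the inhibitor and at 358 and 64.4 CPM with both ligands (log2 fold change 7.12 ± 0.96, adjusted p = 0.00191). Csn3, which encodes kappa casein, a milk protein, was at 0.05 and 0 against 122 and 35.6 CPM. Both were higher in replicate 1 of the treated libraries, while among the flanking genes Rufy3 rose (1.53), Grsf1 fell (-0.46) and Utp3, Mob1b and Dck did not pass.

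Members of the Serpinb family, protease inhibitor genes, were likewise examined after values were seen, with no test of a difference between chromosomes. Over all tested genes 27.6% rose and 18.4% fell. On chromosome 1, 7 of 9 tested members fell and 1 rose, with Serpinb12 and Serpinb3a at log2 fold changes of -7.55 and -7.28. On chromosome 13, 3 of 8 rose and 2 fell, with Serpinb6b at 0.55 and 0.30 against 95.1 and 81.9 CPM. Near-identical copies within this family make separate values uncertain. Hox genes, regulators of position along the body axis, were also chosen after values were seen. Of 15 tested, 10 rose and 1 fell, against 27.6% and 18.4% over all tested genes. Hoxa3 was at 6.50 and 7.05 against 32.4 and 33.4 CPM (2.13).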
